A study of Mus musculus with 145 samples.

Results

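The genes described here are 9 regulators and markers of the neural lineage, *Nr2f1*, *Nr2f2*, *Pax6*, *Foxp2*, *Msx1*, *Lhx2*, *Nes*, *Nr2e1* and *Sox1*, taken as a fixed list of names among the 24615 genes of the single-cell count table. They were followed through the reprogramming of mouse spermatogonial stem cells (SSCs) towards germline-derived pluripotent stem cells (gPSCs), in which the study named 4 clusters of cells as neural. Modified STRT-seq, a single-cell method that counts each captured RNA molecule once by a unique molecular identifier (UMI), gave 4464 cells in 49 libraries. Of these libraries, 46 came from SSCs cultured for 0 to 27 days, 1 each from gPSCs at passages 1 and 15, and 1 from mouse embryonic stem cells (mESCs). The RNA part of scTrio-seq2, which separates RNA and DNA of the same cell, gave 724 cells in 8 samples treated with 5C and 365 cells in 5 samples treated with the solvent DMSO. All cells share the strain background of a C57BL/6 mother and a DBA father (DBA/2 in the methods of the study). The SSC line carried an Oct4-EGFP reporter, came from testes of young mice and was kept on mouse embryonic fibroblast feeders. 5C is the mixture of SGC707, vitamin C, EGCG, Daphnetin and TUDCA. Colonies were chosen and digested before single cells were moved by mouth pipette, and nothing in the labels says that libraries of one day came from separate cultures.

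The members act at different levels of neural development. *Nr2f1* and *Nr2f2* encode the COUP-TF orphan nuclear receptors, which pattern the forebrain and also act in mesenchyme, the latter gene in veins, atria and many connective tissues. *Foxp2* encodes a forkhead repressor of neurons of cortex, striatum and cerebellum. *Nr2e1*, also called Tlx, encodes an orphan nuclear receptor that keeps neural stem cells dividing. *Pax6*, *Lhx2* and *Msx1* encode homeodomain factors of the eye and dorsal forebrain, of forebrain and limb, and of neural crest, roof plate and limb. *Sox1* is a marker of the early neural plate. *Nes* encodes nestin, an intermediate filament protein used as a mark of neural stem cells, which is also present in muscle, vessels and other dividing cells. The genes by which the study named the neural clusters include *Nr2f1*, *Foxp2* and *Msx1*, so the levels of members across clusters are a description and carry no test.

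On GRCm38, the assembly also called mm10, GENCODE places *Nr2f1* at chr13:78188973-78199757 and *Nr2f2* at chr7:70351944-70366735, both on the minus strand. *Nr2e1* lies at chr10:42561963-42583632 and *Msx1* at chr5:37820485-37824583, also on the minus strand. *Foxp2* lies at chr6:14901349-15441977, *Lhx2* at chr2:38339281-38369733, *Nes* at chr3:87971078-87980451, *Pax6* at chr2:105668900-105697364 and *Sox1* at chr8:12395295-12400126, all on the plus strand. RefSeq promoters (GRCm38.p6), read as the 250 bases before each annotated start, were matched for 8 of the 9 genes in 11 windows. They differ in their density of CG dinucleotides, which ran from 1 to 29 per window, against a median of 6 over 32851 promoters (quartiles 2 and 16). Of the 11 windows, 9 lay above that median. The motif AGGTCA, the core of nuclear receptor binding sites, was searched on both strands (TGACCT on the other) and occurred in 0 of the 11 windows, against 14.02% of all promoters. The stretches upstream of the gene body are shown for *Nr2f2*, whose window had the fewest CG dinucleotides of the 11, and for *Nr2e1*, the member without a UMI in the 5C samples. They are chr7:70366747-70366996 and chr10:42583633-42583840, both written 5′ to 3′ on the minus strand, and capitals mark CG dinucleotides.
Nr2f2: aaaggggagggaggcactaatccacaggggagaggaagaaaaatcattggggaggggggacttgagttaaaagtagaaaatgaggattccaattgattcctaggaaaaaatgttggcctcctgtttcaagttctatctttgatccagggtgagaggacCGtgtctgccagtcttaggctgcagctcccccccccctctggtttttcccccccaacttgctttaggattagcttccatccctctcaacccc
Nr2e1: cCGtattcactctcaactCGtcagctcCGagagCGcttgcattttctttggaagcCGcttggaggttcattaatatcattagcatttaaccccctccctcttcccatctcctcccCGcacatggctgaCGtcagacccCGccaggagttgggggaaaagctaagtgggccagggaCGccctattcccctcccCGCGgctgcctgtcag

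Libraries of the reprogramming course held 15975410 to 34609591 UMIs, and scTrio-seq2 samples held 3889964 to 10724925. Levels are given as CPM, the UMIs of a gene per 1000000 UMIs of a sum after scaling between libraries, and intervals are 95% exact binomial intervals that cover counting error only. The same barcodes, numbered 1 to 96, were used in each library, and 0 pairs of cells had identical counts. The annotation placed 271 cells in Neural 1, 117 in Neural 2, 61 in Neural 3 and 29 in Neural 4, together 478, against 2265 in SSC1 to SSC4 and 33 in RPG4, the last of the 4 reprogramming clusters. Sums of at least 5 cells of a cluster in a library were available from 8 libraries for Neural 1, from 2 each for Neural 2, Neural 3 and RPG4, and from 28 for SSC1, while no library held 5 Neural 4 cells. All 61 Neural 3 cells and 116 of the 117 Neural 2 cells came from day 27, and there from 2 of its 5 libraries, with 51 and 36 cells of Neural 2 and Neural 3 in replicate 1 and 65 and 25 in replicate 2. The other 3 libraries of that day held 74, 57 and 75 Neural 1 cells. Replicates 1 and 2 share a batch date with the 7 libraries of day 23 and replicates 3 to 5 have another date. The annotation also gives replicates 1 and 2 the same type label, while replicates 3, 4 and 5 each have their own. The identity of Neural 2 and Neural 3 and the source of replicates 1 and 2 therefore cannot be told apart, and the spread between these 2 libraries may be technical.

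Among the 4 clusters called neural, Neural 3 differed from the others in the markers of other cell types. Spermatogonial markers (*Dazl*, *Ddx4*, *Zbtb16*, *Gfra1*, *Dmrt1* and *Etv5*) summed to 1410 to 1847 CPM in Neural 1 and 1365 to 1947 CPM in Neural 2, next to 1707 to 2675 CPM in SSC1. In Neural 3 they summed to 193 and 388 CPM. *Dazl*, an RNA-binding protein of germ cells, had a mean level of 677 ± 79.3 CPM (SD, n = 8 libraries) in Neural 1, 126 ± 76.9 CPM (SD, n = 2) in Neural 3 and 1037 ± 213 CPM (SD, n = 28) in SSC1. Neural 1 and Neural 2 therefore held germ cell markers near the SSC range, and Neural 3 held little of them. Fibroblast markers ran the other way, with 1341 and 1402 CPM in Neural 3 against 11.3 to 157 CPM in Neural 1, 104 and 129 CPM in Neural 2, 23.2 to 187 CPM in SSC1 and 2501 to 6894 CPM in Fibroblast 2. All 11 fibroblast genes were detected in Neural 3 and 8 of them had a mean of at least 5 CPM. The part of fibroblast RNA in the levels of the members was not tested. Over the Neural 1 libraries *Nr2f1*, *Foxp2* and *Msx1* had median levels of 0, 0.637 and 0.467 CPM, each inside the SSC1 range. The low levels of these naming genes in Neural 1 go against its name, although some other neural genes given below had their highest mean there, and each cluster is called below by its number only.

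*Nr2f1* and *Foxp2* were highest in Neural 3, and *Nr2f2* was high in Neural 3 and Fibroblast 2. *Nr2f1* stood at 169 CPM in replicate 1 and 167 CPM in replicate 2 of day 27, with a mean of 168 ± 1.38 CPM (SD, n = 2 libraries). In the Neural 2 cells of the same libraries it stood at 8.66 and 9.03 CPM. RPG4 was at 0 in both of its sums, which come from day 20, while its few day 27 cells held the gene in 3 of 3 cells in replicate 1 and in 1 of 2 cells in replicate 2. Of the 85 sums of SSC1 to SSC4 cells the highest was 8.74 CPM and the median 0. The Neural 3 values thus lay apart from every SSC sum. Fibroblast 2, with the highest fibroblast marker sums given above, came next in order of the mean, with 49.2, 0 and 29.2 CPM in its 3 libraries of day 10, day 27 and day 8, a spread that reaches down to the SSC levels.

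*Nr2f2* did not separate Neural 3 from the fibroblasts. It stood at 142 and 97.3 CPM in Neural 3 (mean 120 ± 31.8, SD, n = 2) and at 166, 83.2 and 106 CPM in Fibroblast 2 (mean 118 ± 42.5, SD, n = 3), and these ranges overlap. Without day 27 replicate 1 or 5, or by plain totals, Fibroblast 2 had the higher mean. Its level was 7.25 and 3.26 CPM in Neural 2, 0 to 13.3 CPM over the 8 sums of Neural 1 and at most 13.3 CPM in SSC1 to SSC4. *Foxp2* stood at 64.2 and 89.6 CPM in Neural 3 (mean 76.9 ± 18.01, SD, n = 2), at 4.80, 0 and 21.7 CPM in Fibroblast 2, and at 2.00 and 2.28 CPM in Neural 2. Its highest SSC sum was 34.4 CPM, below both Neural 3 values. *Nr2f1*, *Nr2f2* and *Foxp2* were the 3 members with both Neural 3 sums above every SSC sum, which held for 8.46% of the 14772 genes compared. *Nr2f2* was the only member for which all Fibroblast 2 sums did so (4.93% of genes), and none did for Neural 1 (0.0%), Neural 2 (0.176%) or RPG4 (6.26%).

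**Figure D1:**
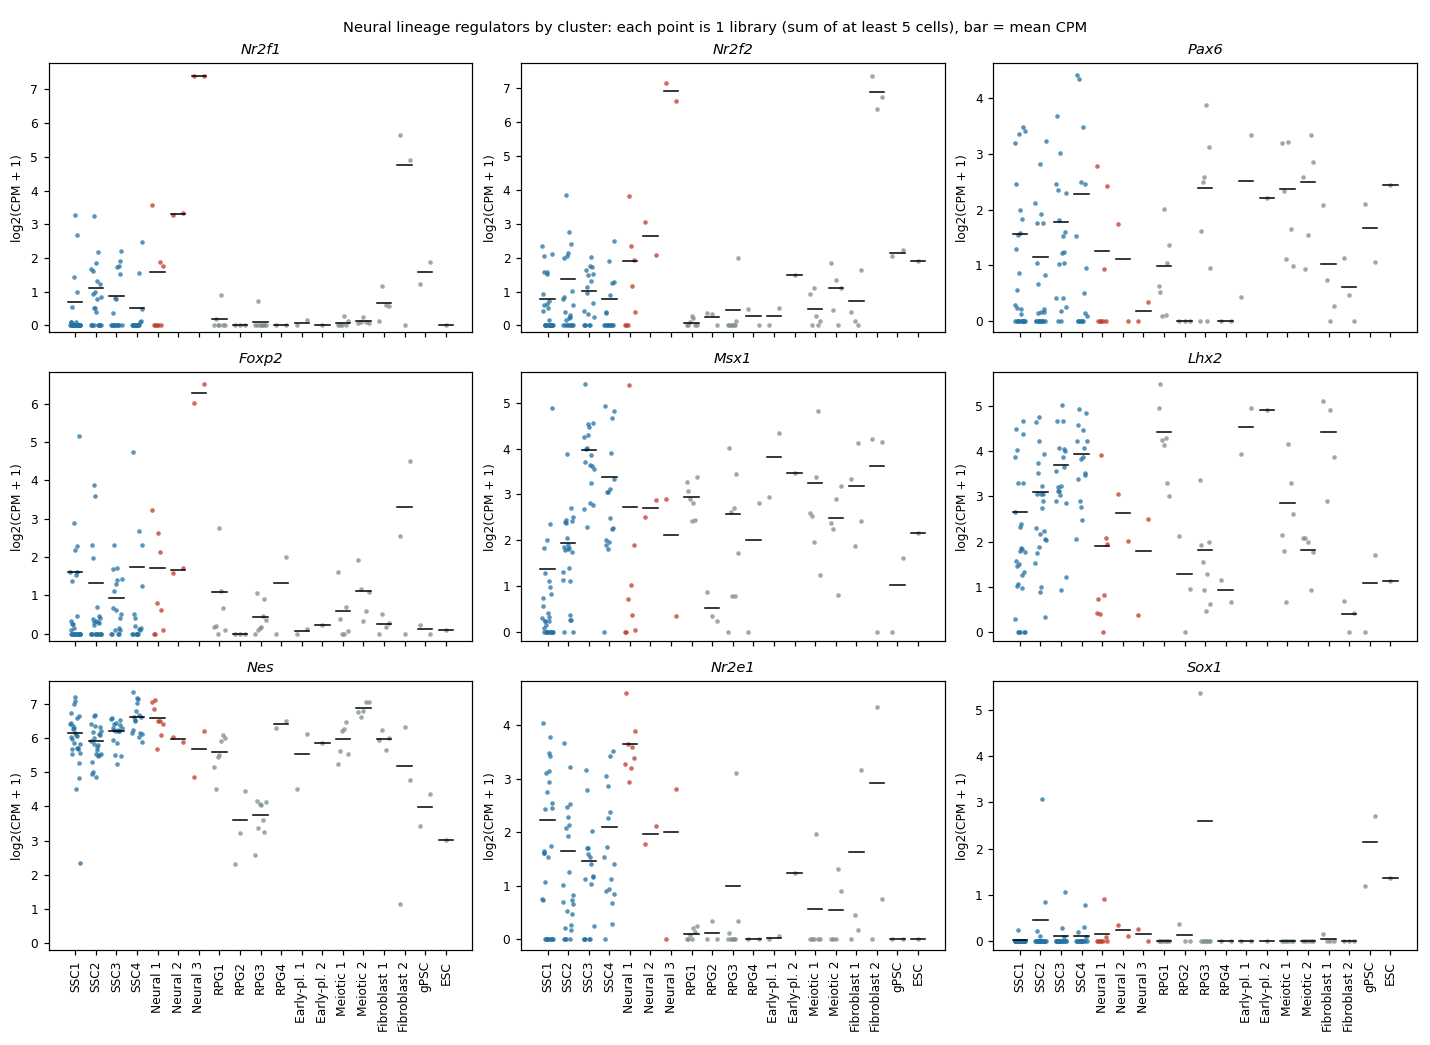
Level of each of the 9 genes as log2(CPM + 1) by cluster; each point is the sum of at least 5 cells of 1 library, the bar is at the mean CPM, and neural clusters are red and SSC clusters blue. The 2 Neural 3 points of *Nr2f1* (169 and 167 CPM) stand above all other points, while those of *Nr2f2* (142 and 97.3 CPM) stand among the Fibroblast 2 points.

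Detection in single cells was also highest in Neural 3. *Nr2f1* had at least 1 UMI in 55 of 61 Neural 3 cells (90.2%, interval 79.8 to 96.3%), *Nr2f2* in 51 (83.6%) and *Foxp2* in 47 (77.0%). All 3 genes were found together in 36 of these cells (59.0%) and 1 cell had none of them. In Fibroblast 2, 0 of 39 cells held all 3, although 28 (71.8%) held *Nr2f2*. *Nr2f1* was found in 8 of these cells (20.5%), fewer than the 59.0% of Neural 2, the reverse of the order of their mean levels. It was found in 1.59% of SSC1, 4.21% of SSC2, 9.31% of SSC3 and 4.19% of SSC4 cells. SSC1 had a lower median depth than Neural 3 (149268 against 234909 UMIs per cell), and the other 3 had higher ones (281650 to 378770.5). Cells with at least 10 UMIs of *Nr2f1* numbered 77 in all clusters, of which 39 were Neural 3 cells. For *Foxp2* they numbered 55 with 26 in Neural 3, and for *Nr2f2* 96 with 33 in Neural 3 and 20 in Fibroblast 2.

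Neural 2 cells held these genes often but at few molecules. *Nr2f1* was found in 69 of 117 cells (59.0%, interval 49.5 to 68.0%), *Nr2f2* in 58 (49.6%) and *Foxp2* in 46 (39.3%), at a median depth of 233728 UMIs, close to that of Neural 3. The detected cells held a median of 2 UMIs of *Nr2f1*, against 23 in Neural 3. After thinning each cell to 50000 UMIs, the share with *Nr2f1* was 20.4% in Neural 2 and 77.6% in Neural 3, and that with *Foxp2* was 8.85% and 53.4%. Nearly all Neural 2 cells share their libraries with Neural 3 cells, and the level in Neural 2 was a small part of that in Neural 3. In replicate 1 it was 5.11% of the Neural 3 level for *Nr2f1*, 5.10% for *Nr2f2*, 3.12% for *Foxp2* and 5.12% for *Meis2*, and in replicate 2 it was 5.39%, 3.35%, 2.54% and 3.24%. *Pdgfrb*, a receptor of mesenchymal cells, had 4.38% and 2.21%, and *Col3a1*, a collagen, had 4.47% and 2.75%. The part was larger for *Sox9* (7.15% and 7.83%), *Twist1* (13.9% and 9.07%), *Pdgfra* (14.01% and 18.6%) and *Col1a1* (17.5% and 12.7%), the last with a mean of 35.3 CPM in SSC1. The 12 cells of these libraries outside both clusters also held *Nr2f1*, in the RPG4 cells named above, that is 3 of 6 cells with 10 UMIs in replicate 1 and 1 of 6 cells with 2 UMIs in replicate 2. The part of RNA shared between cells of a library in these values was not tested.

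**Figure D2:**
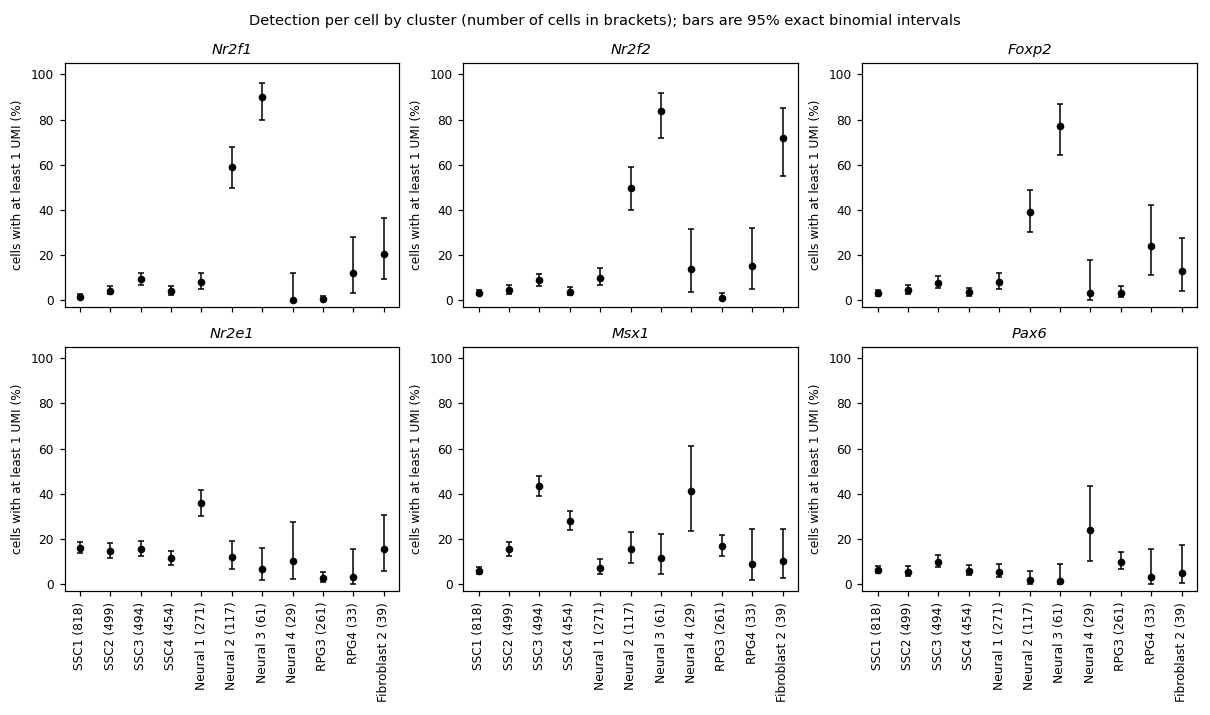
Share of cells with at least 1 UMI of 6 members by cluster, in percent, with the number of cells in brackets and 95% exact binomial intervals as bars. *Nr2f1* reached 90.2% in Neural 3 and 59.0% in Neural 2, *Nr2e1* 35.8% in Neural 1, and *Msx1* 41.4% in Neural 4 next to 43.3% in SSC3.

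*Nr2e1* was the 1 member with its highest mean in Neural 1. Its 8 sums were 8.71 CPM on day 14, 23.2, 11.5, 6.63 and 8.25 CPM on day 20 and 11.04, 9.53 and 13.9 CPM on day 27, with a mean of 11.6 ± 5.18 CPM (SD, n = 8). All Neural 1 sums held the gene, whereas 28 SSC1 sums ran from 0 to 15.5 CPM with a mean of 3.67 ± 4.34 CPM, so the ranges overlap. Means of the other neural clusters were 3.02 ± 4.26 CPM (values 0 and 6.03) in Neural 3 and 2.89 ± 0.639 CPM in Neural 2 (SD, n = 2 each), and RPG4, gPSCs and mESCs were at 0. The gene was found in 97 of 271 Neural 1 cells (35.8%, interval 30.1 to 41.8%), in 132 of 818 SSC1 cells (16.1%), in 11.97% of Neural 2 and in 6.56% of Neural 3 cells. Neural 1 cells were deeper, with a median of 318512 UMIs, and at 50000 UMIs the shares of Neural 1 and SSC1 were 23.2% and 10.5%. Of 104 cells with at least 10 UMIs, 33 were in Neural 1. Neural 1 held little of the 3 genes that marked Neural 3: *Nr2f1* was at 0 in 5 of its 8 sums and at 10.8, 2.68 and 2.41 CPM in the others, and 1 of 271 cells held all 3.

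The homeodomain genes did not have their highest mean levels in Neural 1, Neural 2 or Neural 3, while the pooled cells of Neural 4, which had no sum, held *Msx1* at 153 CPM and *Pax6* at 60.7 CPM. *Lhx2* had its highest means in Early-pluripotency 2 (28.9 CPM, 1 library), Early-pluripotency 1 (22.3 ± 11.2, SD, n = 2), Fibroblast 1 (20.6 ± 12.6, SD, n = 4) and RPG1 (20.4 ± 12.7, SD, n = 7), which do not differ beyond their spread. SSC4 and SSC3 followed with 14.3 ± 8.05 and 12.05 ± 8.11 CPM (SD, n = 16 and 18), and Neural 2, Neural 1, Neural 3 and RPG4 had 5.17, 2.77, 2.48 and 0.909 CPM. *Msx1* had its highest mean in SSC3 with 14.6 ± 8.85 CPM (SD, n = 18), followed by Early-pluripotency 1 (12.98 ± 8.94, SD, n = 2) and Fibroblast 2 (11.3 ± 9.83, SD, n = 3), which do not differ beyond their spread. By the median over libraries, with at least 10 cells per sum or without day 27 replicate 5, Fibroblast 2 came first. Of the other clusters, Neural 1, Neural 2, Neural 3 and RPG4 had means of 5.66, 5.51, 3.35 and 2.996 CPM. The Neural 1 mean was raised by 1 sum of 40.5 CPM, and the median there was 0.467 CPM. *Lhx2* and *Msx1* were found in 47.0% and 43.3% of SSC3 cells, at a median of 378770.5 UMIs per cell, and in 17.97% and 5.99% of SSC1 cells, at 149268. *Pax6* stayed at or below a mean of 4.72 CPM in every cluster with sums of at least 5 cells, with 1.40 CPM in Neural 1, 1.16 CPM in Neural 2, 0.137 CPM in Neural 3 and 0 in RPG4.

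*Nes* was high in most germ cell clusters and in RPG4, and low in gPSCs and mESCs. Meiotic 2 had the highest mean, 116 ± 15.3 CPM (SD, n = 5), followed by SSC4 (97.6 ± 31.6, SD, n = 16), Neural 1 (95.1 ± 30.2, SD, n = 8) and RPG4 (83.3 ± 9.09, SD, n = 2). The ranges of Meiotic 2, SSC4 and Neural 1 overlap, and both RPG4 values lie inside those of SSC4 and Neural 1. Neural 2 had 64.0 and 58.5 CPM and Neural 3 28.1 and 73.2 CPM, inside the range of SSC1 (4.04 to 145 CPM). RPG3, RPG4's neighbour among the reprogramming clusters, had 12.3 CPM with a highest library of 16.8 CPM, below both RPG4 values of 76.8 and 89.7 CPM. gPSCs and mESCs had 14.7 and 7.15 CPM. Nestin RNA was found in 29 of 33 RPG4 cells (87.9%), 145 of 261 RPG3 cells (55.6%) and 34 of 61 Neural 3 cells (55.7%). *Sox1* was scarce, with at most 0.173 CPM as the mean of Neural 1, Neural 2 or Neural 3. Its highest mean, 5.01 CPM in RPG3, came from 1 library of day 12 at 40.1 CPM with the other 7 at 0. It was found in 26 of 80 gPSCs (32.5%), 9 of 45 mESCs (20.0%) and 4 of 33 RPG4 cells, where 88.9% of 63 UMIs lay in 1 cell.

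Neural 4 was the shallowest of the neural clusters, with a median of 65379 UMIs per cell, and its 29 cells were scattered over 20 libraries from day 10 to day 27. Pooled over these cells, *Msx1* had 403 UMIs or 153 CPM, from 12 cells (41.4%, interval 23.5 to 61.1%), and *Pax6* had 160 UMIs or 60.7 CPM, from 7 cells (24.1%). The richest cell held 27.05% of the *Msx1* and 41.9% of the *Pax6* molecules, and 4 cells held both genes. *Nr2f1* was found in 0 of 29 cells, which allows a share of cells with a UMI of up to 10.3% and sets no limit on cells that express the gene below capture. For *Nr2f2*, 93.1% of 87 UMIs came from 1 cell. *Nes* had 86.9 CPM from 19 cells. *Dazl* was found in all 29 cells, and the spermatogonial markers summed to 1702 CPM, against 140 CPM of fibroblast and 185 CPM of pluripotency markers. Among the neural genes outside the members, *Pou3f1* (345 CPM), a POU factor of early neural ectoderm and SSCs, *Nefm* (189 CPM), a neurofilament subunit, and *Lhx1* (177 CPM) contributed most to their lists. These are values of few cells and have no spread over libraries.

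The lists of other neural genes were spread over the clusters in different ways. The 14 neural crest genes summed to 563 and 669 CPM in Neural 3, 130 and 148 CPM in Neural 2, 43.5 to 134 CPM in Neural 1, 251 to 315 CPM in Fibroblast 2 and 39.8 to 155 CPM in SSC1. *Sox9* and *Twist1*, which also act in cartilage and mesenchyme, had means of 311 and 113 CPM in Neural 3, while *Tfap2b* and *Dlx5* were at 0 there. The 25 progenitor and patterning genes summed to 443 and 508 CPM in Neural 3, where *Meis2*, a partner of HOX factors, alone had 330 CPM, to 209 and 236 CPM in Neural 2 and to 139 to 251 CPM in Neural 1, inside the SSC1 range of 88.4 to 329 CPM. The single sum of Early-pluripotency 2 was 517 CPM and RPG3 reached 485.5 CPM, so the Neural 3 level was not particular to that cluster. *Rax*, *Sox21*, *En2* and *Dbx1* of this list were at 0 in Neural 3. The 18 neuronal genes summed to 37.7 to 122 CPM in Neural 1 and 74.8 and 97.4 CPM in Neural 3, and to 252 and 355 CPM in Neural 2 and 543 and 582 CPM in RPG4. The Neural 2 sums lie inside the range of SSC1 (31.9 to 405 CPM), and those of RPG4 inside the ranges of SSC3 (169 to 671 CPM) and RPG1 (317 to 621 CPM). In RPG4 *Stmn2*, which binds tubulin in growing axons, made up most of that sum with 351 ± 69.4 CPM (SD, n = 2), and RPG3 as a whole ran from 391 to 829.5 CPM. RPG4 was the cluster with the highest mean of *Nefl* (41.2 CPM), *Foxd3* (29.4 CPM), *Sp8* (15.3 CPM) and *Fabp7* (14.98 CPM), and of none of the 9 members. Neural 1 had the highest mean of *Pou4f1* (25.4 CPM), a POU factor of sensory neurons, and of *Dll1* (7.67 CPM), a Notch ligand, with values of 2.21 to 52.3 CPM and 0.790 to 13.4 CPM that overlap those of SSC1 (0 to 34.1 and 0 to 9.33 CPM). Neural 2 had the highest mean of *Isl1* (19.5 CPM), *Neurod4* (7.44 CPM), *Neurod1* (6.72 CPM) and *Otx1* (5.45 CPM).

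**Figure D3:**
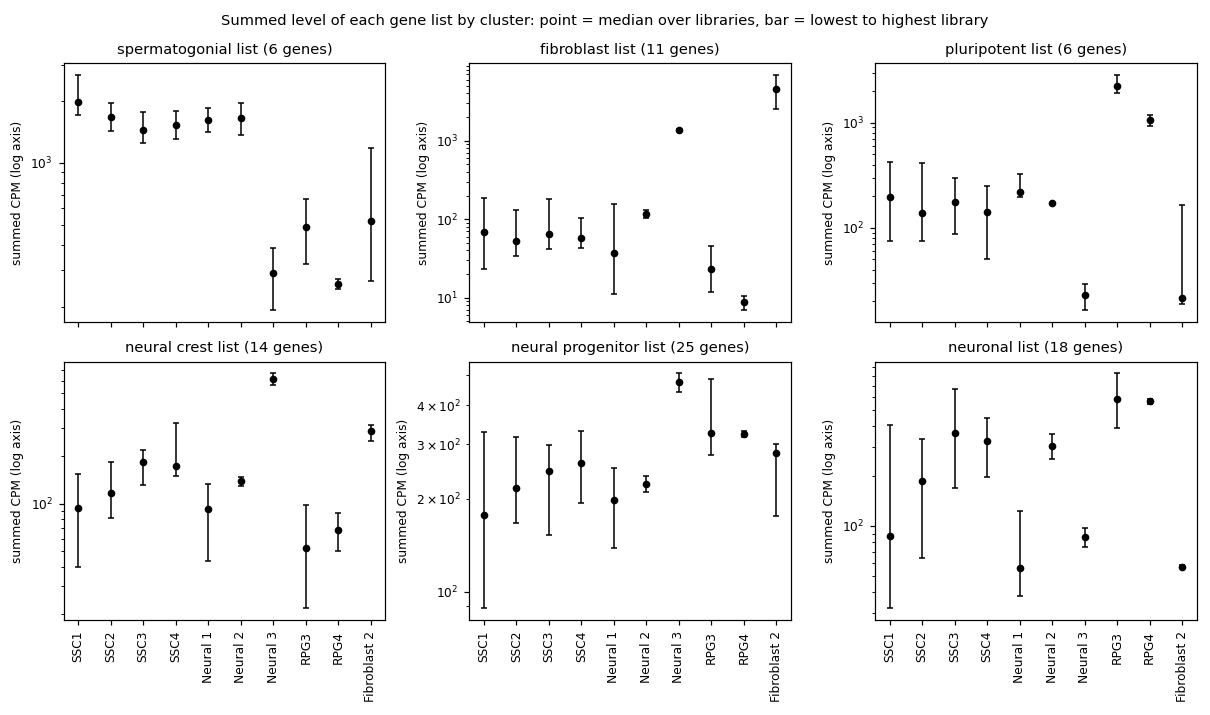
Summed CPM of 6 gene lists by cluster on a log axis; the point is the median over libraries and the bar runs from the lowest to the highest library. Neural 3 combined high fibroblast (1341 to 1402 CPM) and neural crest sums with low spermatogonial sums, and Neural 1 stayed inside or near the SSC1 range in each list.

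The genes most like each member were found by Pearson r of log2(CPM + 1) over 138 sums per library and cluster, among 14772 genes, as a description in which sums share libraries and depth. *Nr2f1* was most like *Meox2* (0.80), *Fat4* (0.77) and *Pcdhb20* (0.76), and *Nr2f2* most like *Dnm3os* (0.80), *Cdh11* (0.77) and *Cd248* (0.77), of which the last 2 are known from stromal cells. *Foxp2* followed *Fat4* (0.63), *Gm15524* (0.59) and *Robo2* (0.59). Among the members these 3 were the most alike, with 0.64 for *Nr2f1* and *Nr2f2*, 0.59 for *Nr2f1* and *Foxp2* and 0.49 for *Nr2f2* and *Foxp2*, and *Lhx2* and *Msx1* followed with 0.45. *Lhx2* was most like *Nefm* (0.63), *Vsx1* (0.62) and *Ppp2r2c* (0.61), *Msx1* like *Adm* (0.60), *Plaur* (0.57) and *Pcdh1* (0.56), and *Nes* like *Eif5a2* (0.70), *Ddx25* (0.69) and *Susd4* (0.69). *Nr2e1* had *Enpep* (0.57), *Pxt1* (0.51) and *Fbxo32* (0.51). For *Pax6* the highest value was 0.35 (*Nod1*). For *Sox1* the values were 0.71 for *Serpina9*, 0.61 for *Scgb3a1* and 0.58 for *Prr22*, from few sums with any molecule. An antisense gene that overlaps *Nr2f1*, *A830082K12Rik*, had 37.9 CPM in Neural 3, 1.21 CPM in Neural 2 and 10.8 CPM in Fibroblast 2, and the strand setting of the counting is not given in the sources used here.

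Whole libraries were then compared between days, which come from the labels. The groups still differ in clusters, with 59.4 to 93.8% of cells per library in neural clusters on day 27 and 0 to 10.9% on day 20. *Nr2f1*, *Foxp2* and *Msx1* helped to name those clusters, and the members were chosen with earlier results known. The calls below are therefore no independent support for the levels by cluster. Day 27 and day 20 were set against each other to ask whether the members moved late in the course. Bulk sums cannot tell fewer cells of a type from less RNA per cell. In edgeR's quasi-likelihood test over 19458 genes, 3 of the 9 members passed an adjusted p of 0.05 with an absolute change of at least 0.5 on the natural-log scale, against 0.982% of all genes. Of the members 2 rose, against 0.761% of genes, and 1 fell, against 0.221%. The median log2 change of the members was 1.39, against 0 over all genes. *Nr2f1* stood at 60.1, 41.5, 2.24, 0.142 and 2.84 CPM in the 5 libraries of day 27 and at 0 to 1.43 CPM with a median of 0.162 CPM in the 9 of day 20, a log2 change of 5.72 (SE 1.198, adjusted p = 0.00823). *Nr2f2* stood at 50.3, 22.7, 2.00, 1.70 and 6.63 CPM against 0.0707 to 2.91 CPM (median 0.719), a log2 change of 3.94 (SE 1.06, adjusted p = 0.0488). For both genes the first 2 libraries, those with the Neural 2 and Neural 3 cells, were far above the other 3, and the groups overlap. Without these 2 libraries no member passed, against 0.227% of genes, with an adjusted p of 0.491 for *Nr2f1* and 0.558 for *Nr2f2*. Leaving out single libraries, *Nr2f1* lost its call without replicate 1 of day 27 (adjusted p = 0.0569), and *Nr2f2*, close to the threshold, in 9 of 14 such fits (adjusted p up to 0.210).

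With the makeup given above, whose part was not tested, *Lhx2* fell on day 27 in all libraries. Its values were 4.53, 3.23, 0.665, 2.84 and 2.48 CPM, against 7.60 to 24.3 CPM with a median of 11.8 CPM on day 20, so the groups did not overlap, as for 1.55% of all genes. The log2 change was -2.16 (SE 0.53, adjusted p = 0.0270), and -2.63 without the 2 libraries named above (adjusted p = 0.0781). The call was lost in 4 of 14 fits that left out 1 library, namely replicate 9 of day 20 or replicate 2, 3 or 5 of day 27, with log2 values from -2.42 to -1.91. *Foxp2*, at 21.9, 20.3, 2.75, 0.639 and 0.0597 CPM against 0.0354 to 3.56 CPM, had a log2 difference of 3.01 (SE 1.01, adjusted p = 0.118). *Nr2e1* had 1.48, 3.80, 9.98, 6.25 and 13.7 CPM against 0 to 6.92 CPM, a log2 difference of 1.39 (SE 1.06, adjusted p = 0.586). The higher *Nr2e1* values were thus in the 3 libraries with Neural 1 cells and the higher *Foxp2* values in the other 2. *Nes* was at 72.5 ± 17.2 CPM (SD, n = 5) and 68.2 ± 19.3 CPM (SD, n = 9), with a log2 difference of 0.09 (SE 0.28). *Msx1*, *Pax6* and *Sox1* had log2 differences of -1.24, -0.87 and 2.53 with adjusted p of 0.336, 0.565 and 0.470.

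Day 27 against day 23, in the same fit, gave 1 member past the test, against 1.5% of genes. It was *Lhx2*, with 4.94 to 22.1 CPM (median 10.6) in the 7 libraries of day 23 and again no overlap (2.28% of genes), and a log2 change of -2.12 (SE 0.54, adjusted p = 0.0287), lost in 6 of 12 fits that left out 1 library (replicate 3 or 6 of day 23, or replicate 2, 3, 4 or 5 of day 27; adjusted p up to 0.0904). *Nr2f1* stood at 0 to 3.34 CPM on day 23 and differed by 3.96 on the log2 scale (adjusted p = 0.0778), *Nr2f2* by 3.74 (adjusted p = 0.0762) and *Foxp2* by 3.49 (adjusted p = 0.0926). A comparison inside 1 batch date was possible here, with replicates 1 and 2 of day 27 against the 7 libraries of day 23. There *Nr2f1* (5.21, adjusted p = 0.0222), *Nr2f2* (4.88, adjusted p = 0.00229) and *Foxp2* (4.70, adjusted p = 0.0122) passed, against 3.26% of genes, but the 2 libraries kept are those with all Neural 3 cells and the high values given above, so these calls are no separate evidence. In the same fit *Lhx2* differed by -1.60 (adjusted p = 0.122). No date was shared by days 20 and 27, so for that pair date and day cannot be told apart. Both comparisons use the same day 27 libraries.

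**Figure D4:**
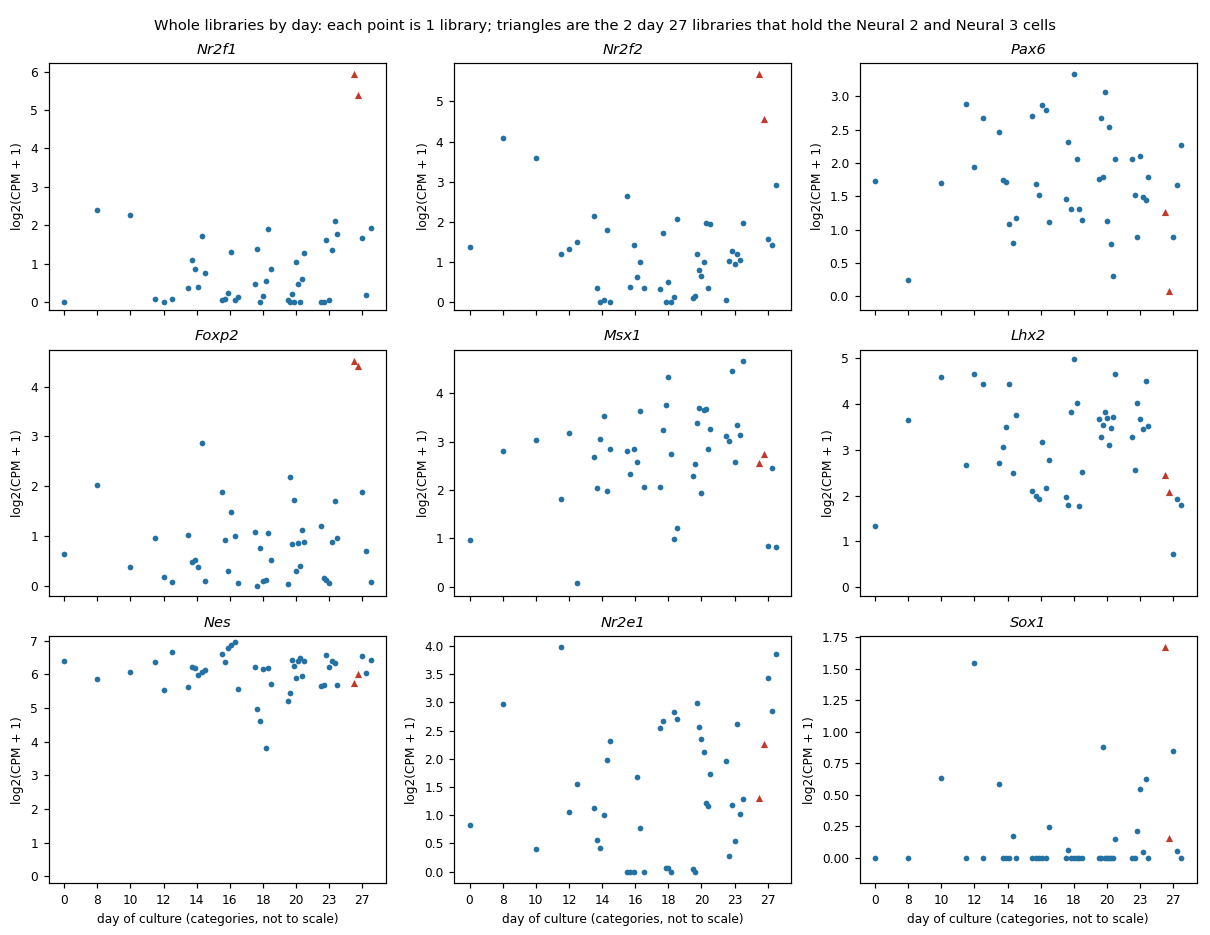
Level of the 9 genes as log2(CPM + 1) in each whole library by day; triangles mark replicates 1 and 2 of day 27, which hold the Neural 2 and Neural 3 cells. Both triangles of *Nr2f1* (60.1 and 41.5 CPM) lie above the other 3 day 27 libraries, while all 5 values of *Lhx2* on day 27 lie below those of days 20 and 23.

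Other neural genes moved in both directions between days 20 and 27. Of the 25 progenitor and patterning genes 1 rose and 2 fell, of 17 neuronal genes tested 1 fell, and of 13 neural crest genes none passed, against 0.761% of all genes higher and 0.221% lower. *Meis2* stood at 113, 79.1, 2.21, 0.887 and 5.08 CPM in the 5 libraries of day 27 and at 2.17 ± 1.59 CPM (SD, n = 9) on day 20, a log2 change of 4.20 (adjusted p = 0.00984). Only the 2 libraries with the Neural 3 cells were high, and the adjusted p was 0.0782 without replicate 1 and 0.925 without both, where the log2 change was 0.33. *Zic1*, *En1* and *Lhx1*, factors of hindbrain, midbrain and spinal interneurons among others, fell by 1.36, 3.13 and 1.75 on the log2 scale, and by 1.63, 3.17 and 2.27 without both libraries (adjusted p = 0.0781, 0.0882 and 0.0594). Fibroblast markers moved with *Nr2f1*: 4 of 11 passed, all higher, with *Col3a1* at 63.3 ± 72.2 against 0.462 ± 1.07 CPM and *Pdgfrb* at 13.4 ± 17.8 against 0.556 ± 0.933 CPM. Both were highest in replicates 1 and 2, with 157 and 123 CPM of *Col3a1* against 0.390 to 34.1 CPM in the other 3 libraries, and none of the 4 passed without replicate 1 (adjusted p = 0.0671 to 0.221) or without both (0.218 to 0.641). Between days 23 and 27 *En1* fell by 3.09 and *Col3a1* rose by 6.53 on the log2 scale, neither passing without both libraries (adjusted p = 0.0860 and 0.318), and no neuronal or neural crest gene passed.

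To see whether the members moved in cells that stayed SSCs, cells of SSC1 to SSC4 were summed per library and day 23 was compared with day 14. None of the 8 members tested passed in edgeR, against 0.971% of 17817 genes, nor in the DESeq2 Wald test, and 1 had an unadjusted p below 0.05. That 1 was *Msx1*, with 5.19 to 25.01 CPM on day 23 and 3.15 to 7.75 CPM on day 14, and a log2 difference of 1.12 (SE 0.52, adjusted p = 0.285). *Lhx2* had 14.8 ± 4.65 and 10.6 ± 4.51 CPM and *Nes* 77.3 ± 15.4 and 69.7 ± 12.1 CPM (SD, n = 6 each). *Nr2f1* reached at most 3.38 CPM in any of these 12 sums and *Nr2f2* at most 3.57 CPM. *Sox1*, with 34 and 2 UMIs, did not pass the filter on low counts. *Pou3f2*, a POU factor of neural progenitors, was the 1 gene of 23 tested progenitor genes that passed, with 1.96 ± 1.93 against 0.0739 ± 0.104 CPM and a log2 change of 4.99 (adjusted p = 0.0346), but with 4 UMIs on day 14 it entered the test through the day 23 sums, and its values stand as a description.

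The scTrio-seq2 samples were compared between 5C and DMSO, which asks whether the chemicals changed the neural genes. The 5C samples were taken on day 12, 14 or 16 and the DMSO samples on day 20 or 24, with 8 cells of day 0 in DMSO replicate 5, so treatment and day cannot be told apart. Over all cells 3 members passed the filter on low counts and 0 passed in edgeR or in the DESeq2 Wald test, against 11.3% of 13014 genes, and 0 had an unadjusted p below 0.05. *Msx1* stood at 0.148 to 13.3 CPM in 5C (median 4.44, n = 8) and at 0 to 3.70 CPM in DMSO (median 3.02, n = 5), a log2 difference of 1.57 (SE 0.99, adjusted p = 0.301). *Nes* had 64.3 ± 23.4 against 50.5 ± 33.2 CPM and *Lhx2* 2.69 ± 1.01 against 2.49 ± 2.16 CPM (SD). *Nr2f1* had 44 UMIs in 7 of 724 5C cells and 0 in 365 DMSO cells, which allows a share of cells with a UMI of up to 0.822%.

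*Nr2e1* was not detected in the 5C samples. It had 0 UMIs in all 8 samples (0 of 724 cells, which allows a share of cells with a UMI of up to 0.414%), and 0.232, 0.401, 7.51, 21.3 and 18.3 CPM in DMSO replicates 1 to 5, where 63 of 365 cells held it (17.3%). Against the level that 3 counts over all 5C samples would give, it was at least 196-fold lower in 5C. It did not pass the filter over all cells. Without the filter its adjusted p in edgeR was 0.00598, where 6.93% of 20257 genes were called. All its UMIs lay in the DMSO arm, so that p is no support for a difference. In cells predicted as SSC1 to SSC4 the gene was again at 0 in the 8 5C samples (0 of 350 cells) and stood at 8.44, 23.2 and 20.2 CPM in the 3 DMSO samples with at least 5 such cells. Over all 5 DMSO samples 50 of 159 such cells (31.4%) held it. There it was at least 129-fold lower in 5C. It was the 1 of 4 members called in that test, against 16.5% of 12293 genes (adjusted p = 1.9e-05), but it entered the test only through the DMSO samples, so the call is no support for a difference and the values stand as a description. The groups did not overlap, as for 17.5% of genes. Within DMSO the pooled level was 1.84 CPM in the 8 cells of day 0, 3.17 CPM on day 20 and 23.5 CPM on day 24. In the untreated STRT-seq course, libraries of days 12, 14 and 16, the days of the 5C samples, had means of 5.90 ± 7.62 (n = 3), 1.66 ± 1.47 (n = 6) and 0.485 ± 0.886 CPM (SD, n = 6), measured by another protocol.

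**Figure D5:**
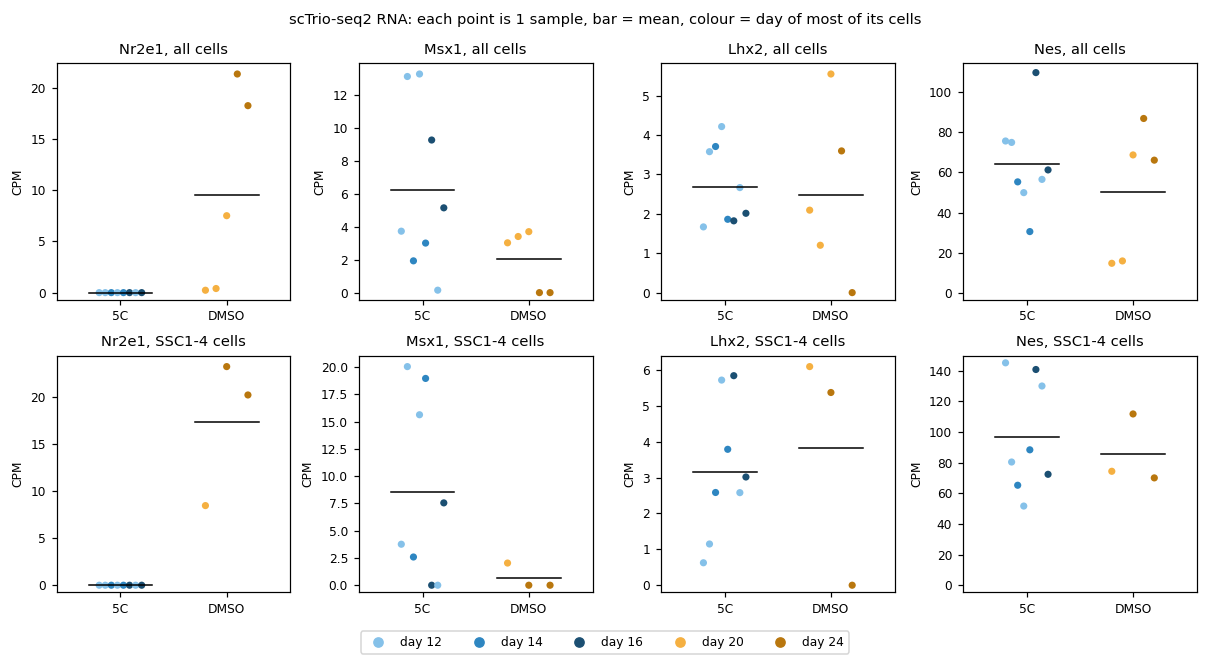
CPM of *Nr2e1*, *Msx1*, *Lhx2* and *Nes* in each 5C and DMSO sample over all cells (top) and over SSC1-4 cells (bottom), with the mean as a bar and the day of most cells as colour. *Nr2e1* is at 0 in all 8 5C samples and highest in the 2 DMSO samples of day 24 (21.3 and 18.3 CPM), and no day is shared by the arms.

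The SSC1-4 cells were made up differently in the arms, with 202 SSC1, 71 SSC2, 32 SSC3 and 45 SSC4 cells in 5C and 124, 29, 3 and 3 in DMSO, and the part of this makeup in the differences below was not tested. *Msx1* stood at 0 to 20.0 CPM in 5C (mean 8.56 ± 8.42, SD, n = 8) and at 0, 0 and 2.03 CPM in DMSO, a log2 difference of 3.35 (SE 1.28, adjusted p = 0.0642) that ran from 2.86 to 7.77 over fits that left out 1 sample, the highest without DMSO replicate 3, where both remaining DMSO samples are at 0 and the fitted value is no bound. It passed in 3 of these 11 fits (5C replicate 6 or 7 or DMSO replicate 3; adjusted p from 0.0206), where 18.1%, 16.5% and 14.9% of genes passed. Without the filter on low counts it passed as well (adjusted p = 0.0191), against 13.7% of genes. *Msx1* entered the filtered test through the 5C samples, so these passes are no support for a difference and its values stand as a description. Pooled over cells of 1 cluster, it had 1.98 CPM in 5C and 0.112 CPM in DMSO in SSC1 (21 UMIs and 1 UMI), 9.84 and 1.53 CPM in SSC2, and 38.3 and 16.2 CPM in SSC3. *Nes* and *Lhx2* had log2 differences of 0.16 and -0.32 (adjusted p = 0.716 and 0.857). In cells predicted as RPG3 only *Nes* could be tested, with 7.84 to 17.9 CPM in 6 5C samples and 6.14 and 7.79 CPM in 2 DMSO samples, a log2 difference of 0.79 (SE 0.63, adjusted p = 0.450), against 13.5% of 11429 genes called. Cells predicted as neural were few. *Nr2e1* was found in 9 of 14 Neural 1 cells in DMSO (64.3%, interval 35.1 to 87.2%) and in 0 of 9 in 5C, and of the 2 Neural 3 cells, both in 5C, 1 held 11 UMIs of *Nr2f1* and 11 of *Foxp2*. In RPG4 *Nes* was found in 10 of 11 5C cells and 7 of 11 DMSO cells, and *Sox1* in 3 of 11 5C cells.

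Genes of the neural lists outside the members differed between the arms in both directions. Over all cells 4 of 9 tested progenitor genes passed, with *Pou3f1*, *Zic1* and *En1* higher and *Sox3* lower in 5C, against 11.3% of all genes. The arms differ in makeup here too, with 145 of 724 cells predicted as RPG3 in 5C and 140 of 365 in DMSO. Early-pluripotency 1 and 2, with 18 and 21 cells, were predicted in 5C only, and the part of this makeup was not tested. *En1*, a midbrain and hindbrain factor, stood at 24.02 ± 21.7 CPM (SD, n = 8) against 0.315 ± 0.259 CPM (SD, n = 5), a log2 change of 6.10 (adjusted p = 0.00106). Of 9 neuronal genes *Nefm* and *Lhx1* were higher, the latter at 102.7 ± 45.98 against 7.24 ± 4.38 CPM, and *Rbfox3*, a splicing factor of mature neurons, was lower. Of 8 neural crest genes *Pax7* was the 1 called, a share near that of all genes, at 3.63 ± 3.13 CPM with 0 in DMSO. *En1*, with 9 UMIs in all DMSO samples, and *Pax7* entered the test through the 5C samples, so their calls, here and in SSC1-4 or RPG3 cells, are no support for a difference and their values stand as a description. In SSC1-4 cells, with their own makeup given above, the counts were 4 of 6 progenitor, 4 of 8 neuronal and 3 of 7 neural crest genes, with *Sox3*, *Rbfox3* and *Ets1* lower and the others higher, against 16.5% of all genes. In RPG3 cells, where 13.5% of all genes passed, *En1* and *Lhx1* were higher and *Stmn2* was lower, at 275 ± 150 CPM (SD, n = 6) against 645 ± 36.3 CPM (SD, n = 2). Both DMSO samples with such sums are of day 20, and the spread between them may be technical.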

How the data were processed

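Counts were taken as the authors deposited them: UMIs of each gene in each cell, not normalized, for 49 modified STRT-seq libraries and 13 scTrio-seq2 RNA samples. Per the study's methods and processing notes, barcodes and UMIs were extracted with UMI-tools, reads were aligned to mm10 with STAR 2.7.2b and assigned to genes with featureCounts 2.0.0, and cells were filtered. Clusters of STRT-seq cells are those of the deposited annotation, and classes of scTrio-seq2 cells are the authors' predictions. No doublet caller was run. The filtered scTrio-seq2 tables hold 8 and 7 of the members because genes were filtered separately in each arm, so counts of the same cells were read from the unfiltered tables, which hold the same values for shared genes. Methylomes were not analysed here.

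Counts were summed per library over all cells, or over the cells of a cluster where there were at least 5. Sums were tested with edgeR 4.0.16 in R 4.3.3 (TMM, filterByExpr, glmQLFit, glmQLFTest, no covariate), with Benjamini-Hochberg adjustment over all genes tested and a call where the adjusted p was under 0.05 and the natural-log fold change was 0.5 or more in size. Days with at least 3 libraries shared 1 fit. Steps were tested on simulated data with known fold changes. Other values came from Python 3.11.15 (scipy 1.17.1, pandas 2.3.3, numpy 2.4.6), and plots from matplotlib 3.10.9. Alternatives were DESeq2 1.42.0 (its size factors or its Wald test), no filter, stricter thresholds, batch B1 only, at least 10 cells, a replicate block and leaving out each library. Fits without both libraries of Neural 2 and Neural 3 cells, within 1 batch date or without DMSO cells of day 0 were added after the data were seen. Named genes were all 9 members, for each the 3 genes of highest correlation, and from each neural list up to 3 called genes per direction and comparison; genes that lead a list in a cluster or share the Neural 2 to Neural 3 ratio were chosen after their values were seen. The members and lists were chosen with earlier results of these data known. The annotation names a batch for each cell, of which B1 is 1, and the study describes 2 batches of SSC reprogramming. No label says that libraries of 1 batch and day came from separate cultures, so p-values measure the spread between libraries, which may be technical. Replicate numbers were not treated as pairs, since same-numbered libraries did not all deviate together. Where a count was 0, the printed limit is that of 3 counts.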

Additional observations from a re-analysis of the deposited data

Results flagged for a closer look

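In 11 of 63 groups of 4 to 10 libraries, 1 library stood apart from the others by Dixon's test at the 95% level. For normally distributed values chance alone does so in about 1 of 20 groups, a rate that need not hold for CPM, which end at 0. All 11 stood apart on the high side. Of these, 6 were sums of Neural 1 cells. Day 20 replicate 7 had 40.5 CPM of *Msx1* (the other 7 sums at most 2.74 CPM), 14.003 CPM of *Lhx2* (at most 3.22) and 13.3 CPM of *Nr2f2* (at most 4.12), from 55, 19 and 18 UMIs. Day 20 replicate 3 had 23.2 CPM of *Nr2e1* from 35 UMIs (the others 6.63 to 13.9 CPM). Day 14 replicate 5 had 10.8 CPM of *Nr2f1* (at most 2.68), and day 27 replicate 3 had 0.880 CPM of *Sox1* (at most 0.0596).

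In SSC1-4 sums, *Pax6* had 11.6 CPM in day 14 replicate 2 (the other 5 at most 2.79 CPM), *Foxp2* 8.27 CPM in day 14 replicate 5 (at most 1.09) and *Nr2e1* 5.34 CPM in day 23 replicate 5 (at most 1.42). In whole libraries, *Lhx2* had 24.3 CPM in day 20 replicate 9 (the other 8 at 7.60 to 13.1 CPM) and *Sox1* 0.841 CPM in day 20 replicate 3 (at most 0.107).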

How the results depend on the processing

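Of 125 recomputed counts of members 103 stayed within 1.5 times the reported count, and of 625 recomputed log2 changes 563 kept direction and call, 29 lost the call, 14 gained it and 19 changed sign, none of them in a called member. Of 90 recomputed shares of cells with a member detected (2 UMIs or thinned) 40 stayed inside the reported interval and 50 moved outside it. For day 27 against day 20 (3 members called) the count was 1 with a replicate block, 1 with the stricter call and 0 without both Neural 2 and 3 libraries, and 1 to 3 leaving out single libraries. For day 27 against day 23 (1 called) it was 4 with the DESeq2 Wald test, 4 with batch B1 only, 3 with libraries of 1 batch date and 0 with the replicate block, the stricter call or both libraries left out, and 0 to 1 leaving out single libraries. For 5C against DMSO it was 1 without the filter, and in SSC1-4 cells 2, and 1 to 2 leaving out single samples. Members highest in a neural cluster numbered 4, with 5 by the median over libraries, 3 by plain totals and 3 to 4 leaving out single libraries of day 27. The cause was not tested. The numbers of genes called moved likewise, for day 27 against day 20 from 191 to 490 (DESeq2 Wald), 616 (B1 only), 64 (replicate block), 44 (both libraries left out) and 36 (stricter), and for 5C against DMSO from 1471 to 213 (stricter) and 4 (replicate block). Signs turned for values that were not called: between days 27 and 23, *Pax6* to 0.085 without both libraries and *Nes* to -0.23 in 1 batch date; between days 23 and 14 in SSC1-4 cells, *Pax6* to 0.0086 with the block, and *Nr2f2* to -0.053, *Foxp2* to 1.16 and *Nr2e1* to 0.38 in batch B1; between 5C and DMSO in SSC1-4 cells, *Lhx2* to 0.46 and *Nes* to -0.35 with the block. Leaving out single libraries, the ranges that crossed 0 were -1.04 to 1.38 (*Foxp2*), -1.19 to 0.30 (*Nr2e1*), -0.12 to 1.25 (*Nr2f2*) and -1.40 to 0.016 (*Pax6*) in SSC1-4 cells by day, -0.028 to 0.18 and -0.051 to 0.16 for *Nes* from day 20 or 23 to 27, and -0.23 to 0.62 and -0.89 to 0.18 for *Lhx2* between arms, in all and in SSC1-4 cells. The block for RPG3 cells could not be fitted. Correlations between same-numbered libraries ran from 0.0636 to 0.231 for days 27 and 20 and from -0.491 to 0.383 between arms, so numbers were not taken as pairs. Neural 2, Neural 3 and RPG4 rest on 2 libraries each, and shares of cells are lower at lower depth, as the thinned shares show.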
